A study of Mus musculus with 10 samples.

Results

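Voltage-gated sodium and calcium channels and potassium channels were followed through the differentiation of mouse embryonic stem cells towards neuromesodermal progenitors, the cells that feed both spinal cord and somites in the elongating embryo. Genes were taken by symbol, as those with potassium channel (Kcn), sodium channel (Scn) or calcium channel (Cacn) family names. A gene was kept where it reached 1 CPM (counts scaled to the total of the library) in 2 or more libraries. Of 52459 gene symbols counted, 132 matched by name and 73 passed this level, leaving 59 below it. RNA-seq had been done on 5 groups with 2 libraries each, all from the ES-Bruce4 embryonic stem cell line of strain C57BL/6, and all labelled wild type. Stem cells had been kept with LIF on inactivated embryo fibroblasts, depleted of these feeders once and moved to N2B27 medium with 10 ng/ml bFgf on day 0, and the Wnt pathway agonist CHIR99021 was given at 5 µM on day 2. Cells sampled on day 2 (D2) were labelled as epiblast stem cells. Those of day 3 (D3, the day the cultures were split), day 6 (D6) and day 7 were labelled as neuromesodermal progenitors. On day 7 the cells either had received 50 ng/ml human Gdf11, a Tgf-beta family ligand, for 24 h (D7G) or had not (D7). The labels state neither whether the B27 supplement held vitamin A in a given culture nor whether the replicates were separate cultures, so each p-value reflects how far these particular libraries scatter, possibly for technical reasons alone.

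Sodium and calcium channels are built around a large pore-forming alpha subunit that opens when the membrane is depolarised, with smaller auxiliary subunits (sodium channel beta, calcium channel alpha2delta, beta and gamma) that set its gating, its delivery to the membrane or, for several gamma subunits, the trafficking of AMPA glutamate receptors. Potassium channels draw the membrane potential towards rest. They comprise voltage-gated pores, voltage-gated pores of the Kv7 and Eag types that hold back firing or repolarise heart muscle, pores opened by calcium or sodium ions, inward rectifiers and tandem-pore (K2P) leak channels. Excitability is best known from neurons and muscle, but stem and progenitor cells also carry many of these transcripts, often without firing action potentials.

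The libraries held between 31078950 and 33418015 counts in genes, and replicates ranked genes alike (Spearman correlation across genes 0.997 in the D2 pair). The channel genes took 0.0649% and 0.0660% of the counts in D2, and their summed level was 649 and 660 CPM in D2, 602 and 582 CPM in D3, 381 CPM in each D6 library, 584 and 636 CPM in D7G and 434 and 455 CPM in D7. Brachyury (T), a defining marker of neuromesodermal progenitors, stood at 0.961 and 0.837 CPM in D2 and at 239 and 240 CPM in D3, and all 10 markers listed for these progenitors were called higher in D3 than in D2. In D6 the T level was 39.0 and 42.7 CPM, in D7G 29.2 and 29.5 CPM and in D7 20.3 and 19.4 CPM. Markers of other cells were present too: the summed level of 10 neuronal markers lay between 84.7 and 239 CPM over the libraries. In bulk RNA of this kind, fewer cells that carry a transcript and less transcript per cell cannot be told apart.

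The 73 genes covered all 13 channel classes examined, and 43 of them had a library at 1 CPM or more in every group, while 3 reached that level in 1 group only. Among these were Kcnmb2 in D7G and Kcnh6 in D2, each kept through that group alone. A high level of either gene in that group follows from the rule. The median level of a channel gene was 2.78 CPM in D2, 3.75 CPM in D3, 1.77 CPM in D6, 2.65 CPM in D7G and 2.37 CPM in D7. Ranked by their second highest library, which the rule reads, the genes just inside the limit were the inward rectifier Kcnj14 at 1.07 CPM, the sodium channel pore Scn2a at 1.10 CPM and the inward rectifier Kcnj2 at 1.11 CPM. Just outside lay the gamma subunit Cacng5 at 0.993 CPM, the A-type pore Kcnd2 at 0.978 CPM and the leak channel Kcnk12 at 0.929 CPM. Among genes below the limit were Kcna10, Kcnj1, Scn10a and Kcnk18, with a second highest library at 0.

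The highest group differed from gene to gene. Of the 73 genes, 20 had their highest mean in D2, 22 in D3, 3 in D6, 18 in D7G and 10 in D7, or 27.4%, 30.1%, 4.11%, 24.7% and 13.7%. Over all 18818 genes tested the shares were 26.0%, 24.0%, 15.1%, 21.2% and 13.7%. These shares are given as a description, with no test.

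**Figure D1:**
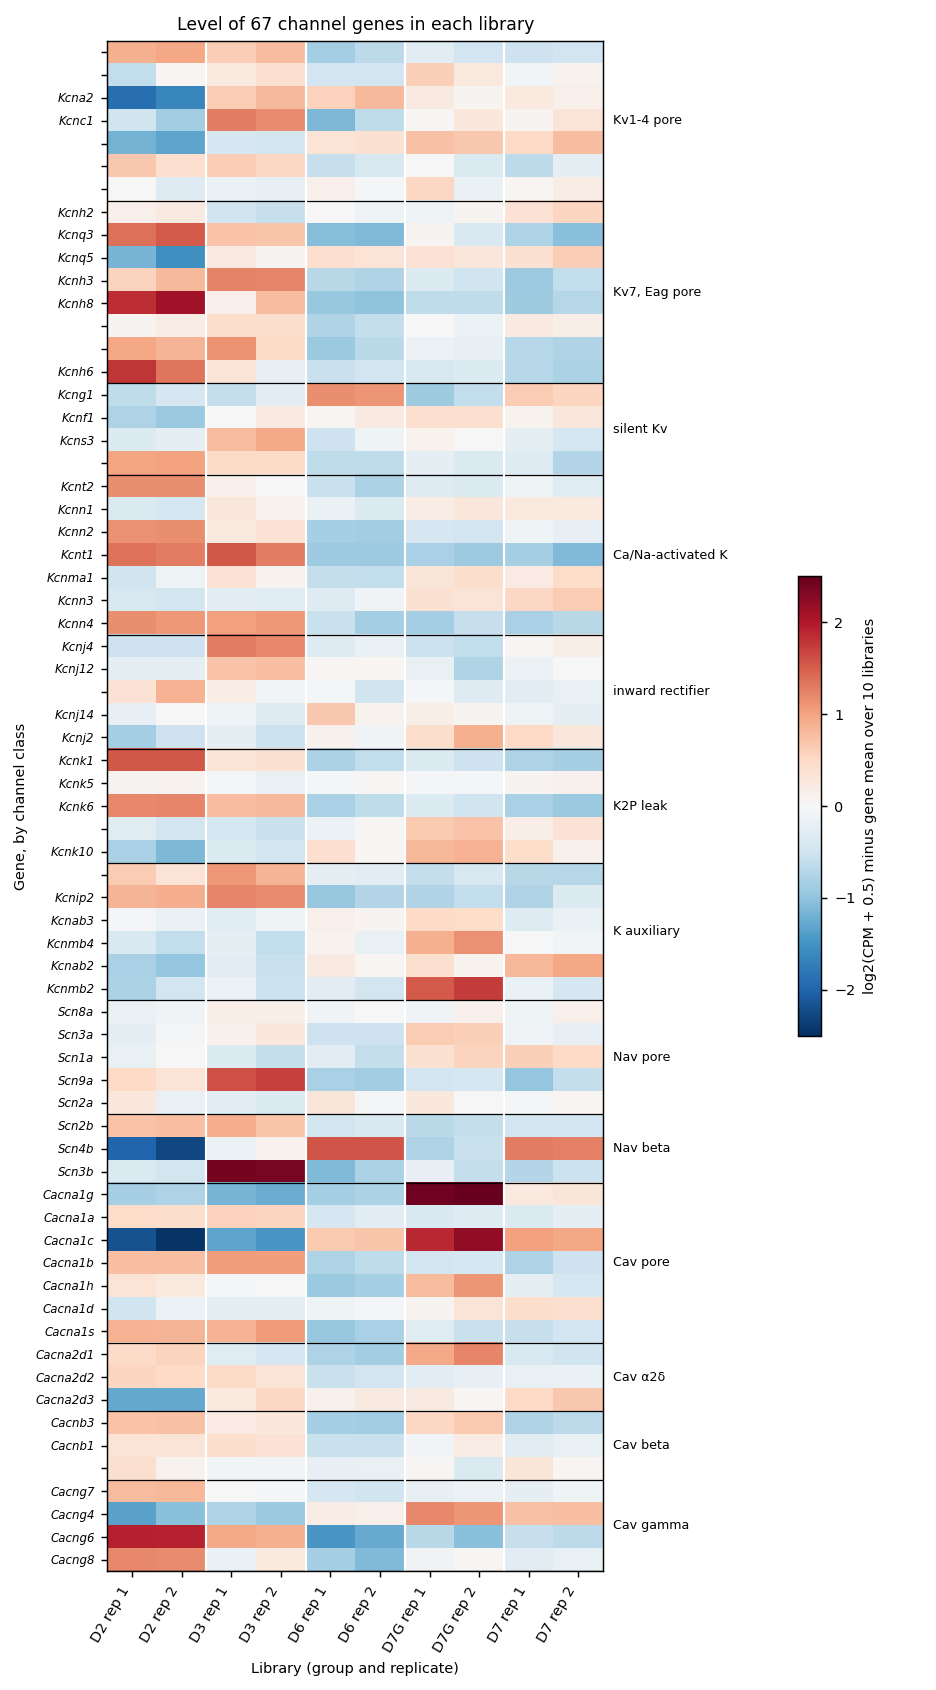
Level of 67 of the 73 channel genes (rows, by channel class, with the genes described in the text labelled) in each of the 10 libraries (columns), as log2(CPM + 0.5) minus the mean of that gene over the libraries, so that red is above and blue below its own mean. The D3 libraries hold the reddest cells for Scn3b, at 22.4 and 22.0 CPM, and the D7G libraries for Cacna1g, at 90.9 and 105 CPM.

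Levels are compared between genes per kilobase of gene model. Cacng7, a gamma subunit known for AMPA receptor trafficking, had the highest level per length in every group, at 41.5 CPM per kb in D2, 23.3 in D3, 17.1 in D6, 20.9 in D7G and 21.2 in D7. The leak channel Kcnk1 (TWIK1) was next in D2 at 31.9 and in D3 at 13.9 CPM per kb, the leak channel Kcnk5 (TASK2) was next in D6 at 7.45 and in D7 at 7.98 CPM per kb, and Cacnb3 was next in D7G at 14.2 CPM per kb. The balance within the leak channels shifted between these 2 genes. Kcnk1 made up 75.5% and 75.2% of the level per length of the 5 leak channels in D2, 60.04% and 62.3% in D3, 43.0% and 44.5% in D6, 48.9% and 46.5% in D7G and 41.2% and 39.7% in D7, while the share of Kcnk5 was 18.6% and 18.9% in D2 and 50.8% and 49.4% in D6.

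Within several classes the same gene led throughout. Cacnb3 held between 78.2% and 88.5% of the level per length of the 3 calcium channel beta genes. Scn8a (Nav1.6, a sodium channel of nodes and axon initial segments) held between 45.1% and 63.4% of that of the 6 sodium channel pores. Kcnj4 (Kir2.3) held between 65.7% and 86.3% of that of the 5 inward rectifiers. Among the 10 Kv7 and Eag-type pores the lead lay with Kcnh2 (ERG, the pore of the cardiac rapid delayed rectifier), with shares between 29.4% in D3 and 64.9% in D6.

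The first comparison, D3 against D2, follows the 24 h after CHIR99021 was given and so the entry into the progenitor state. Channel genes changed in both directions. Of the 73, 25 were called higher in D3 and 23 lower by edgeR's quasi-likelihood test at an adjusted p under 0.05 (Benjamini-Hochberg over all genes), where 29.6% of all genes tested were called higher and 28.9% lower. Of the 15908 tested genes that passed the same level limit as the channel genes, 32.7% were called higher and 31.9% lower. By at least 2-fold, 16 were higher and 7 lower, against 8.67% and 5.51% of all genes. The median log2 fold change of the channel genes was 0.03, that of all genes 0.00. Each neighbouring pair of comparisons shares a group, so the values that both give for a gene are not independent.

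**Figure D2:**
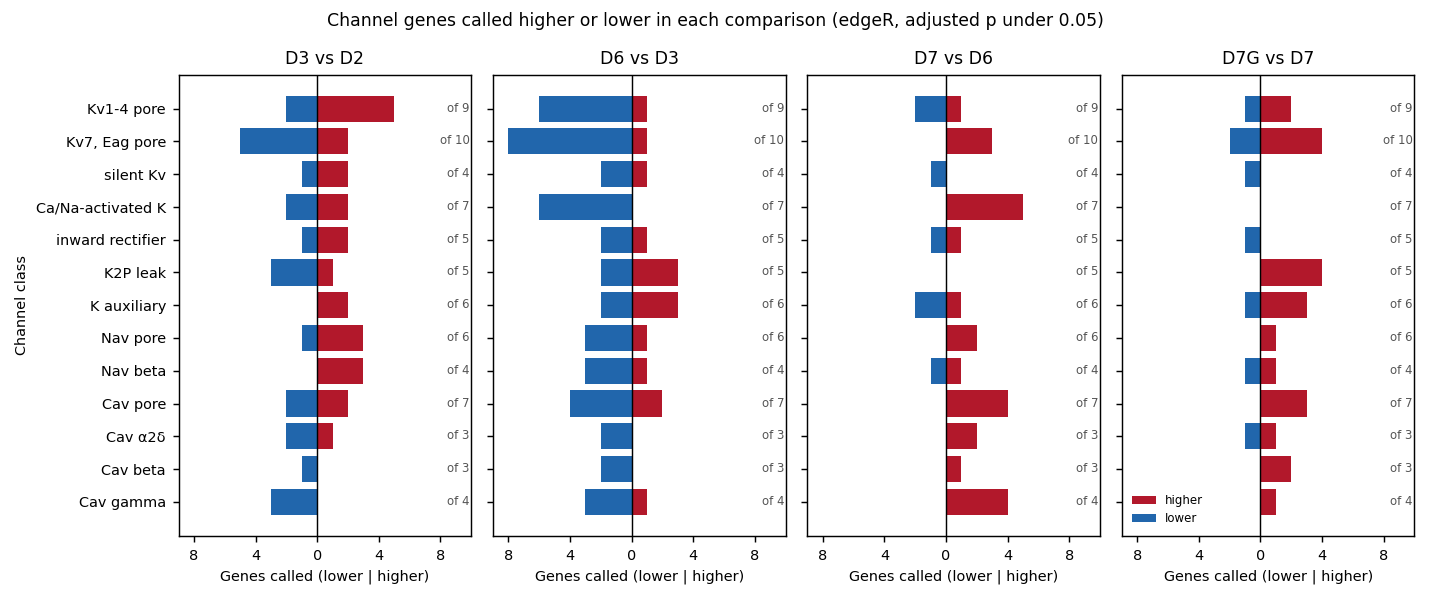
Number of channel genes called higher (red, right of 0) or lower (blue, left of 0) in each of 13 classes, with the class size in grey, for D3 over D2, D6 over D3, D7 over D6 and D7G over D7. In D6 over D3 the blue bars lead in most classes, with 8 of 10 Kv7 and Eag-type pores lower. Some of the genes lower in D6 were kept in the set through D2 or D3 libraries alone. In D7 over D6 all 4 gamma subunits are higher.

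Sodium channel beta subunits Scn3b and Scn4b were higher in D3 than in D2. Scn3b (chromosome 9, 40269217 to 40291618, mm10), a beta subunit that modulates sodium channel inactivation, had 22.4 and 22.0 CPM in D3 and 2.88 and 2.67 CPM in D2. The D3 libraries lay far above both D2 libraries, with a log2 fold change of 2.92 (SE 0.12, adjusted p = 9.06e-14). Scn4b, the source of the open-channel blocker behind resurgent sodium current, had 5.07 and 6.02 CPM in D3 and 1.06 and 0.772 CPM in D2, a log2 fold change of 2.51 (SE 0.18, adjusted p = 2.78e-10). The beta gene Scn2b, a neighbour of Scn4b, did not pass the test (20.3 and 17.5 CPM in D3, 17.6 and 18.2 CPM in D2). Of the 6 pores, 3 rose and 1 fell. The faller, Scn1a, was near the threshold (edgeR adjusted p = 0.0477) and was called in 7 of 20 alternative fits. Scn9a (Nav1.7, known from pain-sensing neurons) had 3.39 and 3.66 CPM in D3 and 1.28 and 1.09 CPM in D2 (log2 fold change 1.49, SE 0.20, adjusted p = 2.76e-06). Scn8a differed less, with 19.8 and 19.6 CPM in D3 and 15.5 and 16.5 CPM in D2 (log2 fold change 0.22, SE 0.09, adjusted p = 0.0386). Its call was lost without any 1 of the 4 libraries compared, with an edgeR adjusted p between 0.0582 without D2 replicate 2 and 0.225 without D2 replicate 1.

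Voltage-gated potassium pores changed in both directions. Of the 9 Shaker, Shab, Shaw and Shal pores, 5 rose and 2 fell, and of the 10 Kv7 and Eag-type pores 2 rose and 5 fell. A difference between these types was not tested. Kcna2 (Kv1.2, chromosome 3, 107101146 to 107115005), a low-threshold pore of axons, had 3.14 and 3.60 CPM in D3 and 0.128 and 0.257 CPM in D2, the steepest rise among the channel genes (log2 fold change 4.02, SE 0.30, adjusted p = 4.09e-10). Kcnc1 (Kv3.1, a fast-firing Shaw pore) had 4.15 and 3.82 CPM in D3 and 0.865 and 0.547 CPM in D2 (log2 fold change 2.41, SE 0.24, adjusted p = 4.20e-08). Among Kv7 genes, Kcnq5 was the riser, with 3.14 and 2.77 CPM in D3 and 0.897 and 0.579 CPM in D2 (log2 fold change 1.91, SE 0.22, adjusted p = 3.44e-07). Its relative Kcnq3, a subunit of the neuronal M-current, fell, with 5.17 and 5.13 CPM in D3 and 8.52 and 9.59 CPM in D2. Kcnh2 had 10.9 and 10.3 CPM in D3 and 17.2 and 18.5 CPM in D2 (log2 fold change -0.83, SE 0.09, adjusted p = 2.15e-07). Kcnh8, an Elk-type pore, had 0.888 and 1.66 CPM in D3 and 4.04 and 4.89 CPM in D2 (log2 fold change -1.89, SE 0.22, adjusted p = 2.79e-07). The ERG relative Kcnh6, counted among the 5 that fell, had 0.602 and 0.255 CPM in D3 and 2.5 and 1.71 CPM in D2 (log2 fold change -2.36, SE 0.32, adjusted p = 2.87e-06). Kcnh6 passed the level rule through its D2 libraries alone. A fall from D2 is thus built into its selection, and the test adds no support. Without D3 replicate 1 the value for Kcnh6 was -3.09, and in the second deposited count table it was -1.56.

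Other potassium channels split as well. The inward rectifier Kcnj4 (chromosome 15, 79483718 to 79505241), a stabiliser of the resting potential, had 21.8 and 20.5 CPM in D3 and 5.92 and 5.86 CPM in D2 (log2 fold change 1.76, SE 0.09, adjusted p = 2.53e-12). Its relative Kcnj12 had 2.5 and 2.61 CPM in D3 and 1.06 CPM in each D2 library. The silent subunits Kcns3 and Kcnf1, which form no channel alone and modify Kv2 pores, also rose, with 2.5 and 2.87 CPM of Kcns3 in D3 against 0.865 and 0.997 CPM in D2, and 2.35 and 2.87 CPM of Kcnf1 in D3 against 1.18 and 0.997 CPM in D2. Leak channels went the other way in 3 of 5 cases. Kcnk1 had 30.7 and 31.5 CPM in D3 and 71.5 and 71.2 CPM in D2, a log2 fold change of -1.28 (SE 0.06, adjusted p = 3.96e-13). Kcnk5 had 24.6 and 22.5 CPM in D3 and 26.8 and 27.2 CPM in D2, a log2 fold change of -0.28 (SE 0.06, adjusted p = 0.000876). Of the 7 ion-activated channels 2 rose and 2 fell. The sodium-activated Kcnt2 had 5.64 and 5.10 CPM in D3 and 12 CPM in each D2 library, and the small-conductance calcium-activated Kcnn2 had 3.58 and 3.92 CPM in D3 and 7.14 and 7.24 CPM in D2. For these fallers the groups did not overlap, which held for 59 of the 73 channel genes, called or not. The share over all genes tested was not computed, so this count is a description only.

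Among auxiliary calcium channel genes, 3 of 4 gamma, 2 of 3 alpha2delta and 1 of 3 beta genes fell in D3, and 1 alpha2delta gene rose. The counted fall of Cacna2d2 was lost without D2 replicate 1 (edgeR adjusted p = 0.123), D2 replicate 2 (0.0815) or D3 replicate 2 (0.319). Cacng7 had 57.5 and 56.4 CPM in D3 and 100.02 and 102.7 CPM in D2 (log2 fold change -0.91, SE 0.05, adjusted p = 3.16e-12). The gamma subunits Cacng6 and Cacng8, which lie next to it on chromosome 7, fell as well, with 8.09 and 7.74 CPM of Cacng6 in D3 against 16.6 and 16.4 CPM in D2, and 1.68 and 2.39 CPM of Cacng8 in D3 against 5.12 and 5.05 CPM in D2. Their log2 fold changes were -1.14 (SE 0.10, adjusted p = 5.90e-09) and -1.40 (SE 0.17, adjusted p = 7.10e-07). Cacna2d1, the alpha2delta subunit bound by gabapentin, had 20.7 and 19.2 CPM in D3 and 36.2 and 38.0 CPM in D2 (log2 fold change -0.97, SE 0.08, adjusted p = 4.90e-09). Cacnb3 had 34.1 and 35.1 CPM in D3 and 48.6 and 49.1 CPM in D2 (log2 fold change -0.58, SE 0.06, adjusted p = 4.92e-08). Of the 7 pores 2 rose and 2 fell. The L-type pore Cacna1c had 4.41 and 3.92 CPM in D3 and 2.18 and 1.74 CPM in D2 (log2 fold change 1.006, SE 0.20, adjusted p = 0.000173). Cacna1a, the P/Q-type pore of presynaptic terminals, had 34.3 and 33.5 CPM in D3 and 31.5 and 31.3 CPM in D2 and did not pass the test. The T-type pore Cacna1g, which opens near rest, had 7.10 and 6.63 CPM in D3 and 9.06 and 9.40 CPM in D2 (log2 fold change -0.51, SE 0.11, adjusted p = 0.000392). Of the listed neuronal markers, 6 of 10 were called lower and 2 higher in D3, with summed levels of 128 to 132 CPM in D3 and 219 to 223 CPM in D2, and 5 of 9 tested cardiac and smooth muscle markers were higher, at 206 to 241 CPM in D3 against 119 to 127 CPM in D2. Pluripotency and epiblast markers were lower in 7 of 10 cases and higher in 2, at 762 to 775 CPM in D3 against 1469 to 1474 CPM in D2. Fibroblast markers were higher in 7 of 9 tested, at 376 to 381 CPM in D3 against 171 to 213 CPM in D2. The part of any of these cells in the channel changes was not tested.

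D6 against D3 spans the 3 days over which the progenitor cultures progressed. Most channel genes were lower in D6. Of the 73, 15 were called higher and 45 lower, where 32.4% of all genes were higher and 33.3% lower, and by at least 2-fold 7 were higher and 32 lower, against 6.95% and 14.1% of all genes. Of the 15908 tested genes that passed the same level limit, 36.2% were called higher and 35.4% lower. The median log2 fold change was -0.85 for channel genes and -0.01 for all genes. Genes kept through D2 or D3 libraries alone are counted in the 45 and the 32. Scn9a, Kcnt1, Kcnn4, Cacna1s, Kcnh6 and Kcnh8 are among them. Their lower level in D6 follows from the rule. All 10 listed neuromesodermal progenitor markers were called lower in D6, and 8 of 10 neural progenitor markers higher.

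Sodium channel genes changed in both directions in D6. Scn3b had 1.54 and 2.01 CPM in D6 and 22.4 and 22.0 CPM in D3 (log2 fold change -3.57, SE 0.13, adjusted p = 8.91e-15). Scn9a (chromosome 2, 66480080 to 66634962) had 0.219 and 0.191 CPM in D6 and 3.39 and 3.66 CPM in D3 and showed the steepest fall of all channel genes (log2 fold change -4.0, SE 0.29, adjusted p = 2.14e-10). In both of these genes the D6 libraries lay below both D3 libraries by a wide gap. Scn9a passed the level rule through its D2 and D3 libraries alone. A fall to D6 is thus built into its selection, and its test adds no support. Scn2b fell to 7.55 and 7.99 CPM in D6, against 20.3 and 17.5 CPM in D3 (log2 fold change -1.2, SE 0.09, adjusted p = 3.73e-10). Scn4b alone among the 4 beta genes rose, with 17.8 and 17.7 CPM in D6 and 5.07 and 6.02 CPM in D3 (log2 fold change 1.76, SE 0.10, adjusted p = 8.40e-12). Scn4b and Scn2b are neighbours, 8.32 kb apart on chromosome 9 (45138395 to 45154152 and 45117782 to 45130070). Per length, Scn4b made up 54.1% and 52.3% of the beta genes in D6 and 5.55% and 6.91% in D3. Scn8a did not pass the test, at 16.5 and 17.4 CPM in D6 and 19.8 and 19.6 CPM in D3.

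Of the 10 Kv7 and Eag-type pores, 8 were called lower, all 8 by at least 2-fold, and Kcnh2 alone was called higher. Some of the 8, Kcnh6 and Kcnh8 among them, passed the level rule through D2 or D3 libraries alone. For these a fall to D6 is built into the selection, and their calls add no support. Among the 8, Kcnh6 was not called in the second deposited count table (edgeR adjusted p = 0.137), without D3 replicate 1 (0.236) or without D6 replicate 1 (0.0737). Kcnq3 had 1.16 and 1.11 CPM in D6 and 5.17 and 5.13 CPM in D3 (log2 fold change -2.10, SE 0.19, adjusted p = 7.39e-09). Kcnh3, an Elk-type pore of the forebrain, had 0.783 and 0.732 CPM in D6 and 4.38 and 4.3 CPM in D3 (log2 fold change -2.43, SE 0.21, adjusted p = 2.55e-09). Kcnh2 had 15.7 and 14.3 CPM in D6 and 10.9 and 10.3 CPM in D3 (log2 fold change 0.58, SE 0.10, adjusted p = 2.36e-05). Of the other voltage-gated pores 6 of 9 fell and 1 rose. Kcnc1 had 0.376 and 0.732 CPM in D6 and 4.15 and 3.82 CPM in D3 (log2 fold change -2.77, SE 0.25, adjusted p = 7.51e-09), whereas Kcna2 did not pass the test, with 2.98 and 3.57 CPM in D6 and 3.14 and 3.60 CPM in D3 (log2 fold change 0.03, SE 0.16, adjusted p = 0.867).

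Of the 7 ion-activated channels 6 fell, and 0 were higher by edgeR, by DESeq2 or at an unadjusted p under 0.05. Kcnt1, the sodium-activated Slack channel, had 0.345 and 0.350 CPM in D6 and 4.15 and 3.34 CPM in D3 (log2 fold change -3.34, SE 0.25, adjusted p = 3.94e-10), and Kcnn4, the intermediate-conductance channel of blood cells, had 0.345 and 0.191 CPM in D6 and 2.03 and 2.17 CPM in D3 (log2 fold change -2.87, SE 0.31, adjusted p = 7.00e-08). Both count among the 6 and passed the level rule through D2 and D3 libraries alone. Their falls to D6 are thus built into the selection, and these tests add no support. The auxiliary subunit Kcnip2, which shapes the A-type current of heart muscle, had 1.57 and 1.91 CPM in D6 and 8.78 and 8.54 CPM in D3 (log2 fold change -2.24, SE 0.15, adjusted p = 1.00e-10), while the beta subunit Kcnab2 rose to 3.54 and 3.09 CPM in D6, against 2.38 and 1.85 CPM in D3 (log2 fold change 0.73, SE 0.18, adjusted p = 0.00159). The silent subunit Kcng1 (chromosome 2, 168260117 to 168281736) rose most among potassium channel genes at 2 CPM or more, with 21.1 and 20.03 CPM in D6 and 5.83 and 7.42 CPM in D3 (log2 fold change 1.71, SE 0.11, adjusted p = 3.63e-11). Per length Kcng1 made up 85.8% and 82.0% of the 4 silent subunits in D6 and 46.0% and 48.6% in D3. Kcnj4 fell to 6.86 and 7.67 CPM in D6, against 21.8 and 20.5 CPM in D3 (log2 fold change -1.46, SE 0.09, adjusted p = 1.39e-11). Among leak channels 3 rose and 2 fell. Kcnk1 had 13.7 and 15.4 CPM in D6 and 30.7 and 31.5 CPM in D3 (log2 fold change -1.02, SE 0.07, adjusted p = 1.06e-10). Kcnk5 had 24.7 and 26.0 CPM in D6 and 24.6 and 22.5 CPM in D3 (log2 fold change 0.18, SE 0.06, adjusted p = 0.0163). The call of Kcnk5 was lost without D3 replicate 2 (edgeR adjusted p = 0.168) or D6 replicate 2 (0.0918), and with library totals in place of TMM factors (0.16).

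Calcium channel pores changed in kind. Cacna1c (Cav1.2, chromosome 6, 118587240 to 119196418), the L-type pore of heart, smooth muscle and neurons, had 18.6 and 19.1 CPM in D6 and 4.41 and 3.92 CPM in D3 (log2 fold change 2.26, SE 0.13, adjusted p = 3.76e-12), the largest rise of any channel gene here. The pores known from presynaptic terminals fell. Cacna1b (N-type) had 7.96 and 8.79 CPM in D6 and 29.2 and 29.3 CPM in D3 (log2 fold change -1.73, SE 0.08, adjusted p = 3.06e-13). Cacna1a had 17.0 and 18.7 CPM in D6 and 34.3 and 33.5 CPM in D3 (log2 fold change -0.85, SE 0.07, adjusted p = 8.45e-10). Cacna1s, the skeletal muscle pore, had 0.188 and 0.255 CPM in D6 and 1.93 and 2.26 CPM in D3 (log2 fold change -3.15, SE 0.31, adjusted p = 1.80e-08), and shares 19.98% of its length with Gm37759 on the other strand, which averaged 0.7 counts a library. As Cacna1s passed the level rule through D2 and D3 libraries alone, its fall is built into the selection and its test adds no support. Per length, Cacna1a and Cacna1b made up 39.0% and 38.2% of the pores in D3 replicate 1, and Cacna1c 19.9% and 19.0% in the D6 libraries against 2.70% and 2.42% in D3. Of the gamma subunits, Cacng6 fell to 1.13 and 1.37 CPM in D6, against 8.09 and 7.74 CPM in D3 (log2 fold change -2.58, SE 0.16, adjusted p = 1.16e-11), and Cacng4 rose to 6.80 and 6.46 CPM in D6, against 3.23 and 2.84 CPM in D3 (log2 fold change 1.2, SE 0.13, adjusted p = 8.71e-08). Cacnb3 fell to 16.3 and 15.9 CPM in D6, against 34.1 and 35.1 CPM in D3 (log2 fold change -1.03, SE 0.07, adjusted p = 4.00e-11). Of 9 tested cardiac and smooth muscle markers 8 were lower and 1 higher, at 67.4 to 68.5 CPM in D6 against 206 to 241 CPM in D3. Of 10 neuronal markers 5 were lower and 4 higher, at 84.7 to 88.9 CPM in D6 against 128 to 132 CPM in D3. Pluripotency and epiblast markers were lower in 8 of 10 cases and higher in 1, at 358 to 442 CPM in D6 against 762 to 775 CPM in D3. Fibroblast markers were lower in 6 of 9 tested and higher in 3, at 294 to 297 CPM in D6 against 376 to 381 CPM in D3. The part of any of these cells in the channel changes was not tested.

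D7 against D6 gives the change over the last day without Gdf11. Here 25 of the 73 channel genes were called higher and 7 lower, where 20.5% of all genes were higher and 15.6% lower. By at least 2-fold 7 were higher and 0 lower by edgeR and by DESeq2 (1 lower at an unadjusted p under 0.05), against 2.63% and 0.707% of all genes. Of the 15908 tested genes that passed the same level limit, 23.4% were called higher and 18.0% lower. The median log2 fold change was 0.27 for channel genes and 0.04 for all genes. The count of lower genes was 3 without D6 replicate 1 and 4 with DESeq2.

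All 4 gamma subunits, 4 of 7 calcium channel pores, 2 of 3 alpha2delta genes and 5 of 7 ion-activated potassium channels rose. Cacna1g (chromosome 11, 94408391 to 94474198) had 19.4 and 20.2 CPM in D7 and 8.93 and 9.33 CPM in D6 (log2 fold change 1.08, SE 0.09, adjusted p = 2.32e-08). Its T-type relative Cacna1h had 3.80 and 3.21 CPM in D7 and 2.13 and 2.32 CPM in D6 (log2 fold change 0.62, SE 0.17, adjusted p = 0.00762). Its call was lost without D6 replicate 1 (edgeR adjusted p = 0.0558) or D7 replicate 1 (0.111). Also counted among the risers, Cacna2d1 lost its call without D6 replicate 2 (0.0611) or D7 replicate 1 (0.109), and Cacna1d without any 1 of the 4 libraries (0.0697 to 0.126). All 4 gamma subunits had both D7 libraries above both D6 libraries. With 2 libraries a group this says little, as the groups did not overlap in 50 of the 73 channel genes, called or not. That count too lacks a share over all genes tested, which was not computed. Cacng4 had 10.1 and 10.2 CPM in D7 and 6.80 and 6.46 CPM in D6 (log2 fold change 0.58, SE 0.11, adjusted p = 0.000252). Cacng6 had 2.48 and 2.33 CPM in D7 and 1.13 and 1.37 CPM in D6 (log2 fold change 0.91, SE 0.19, adjusted p = 0.000978). Cacng7 had 49.6 and 53.8 CPM in D7 and 42.7 and 40.9 CPM in D6 (log2 fold change 0.27, SE 0.05, adjusted p = 0.000433). The 3 small-conductance calcium-activated channels, which carry the afterhyperpolarisation of neurons, all rose. Kcnn3 had 2.24 and 2.49 CPM in D7 and 1.03 and 1.31 CPM in D6 (log2 fold change 0.98, SE 0.20, adjusted p = 0.000647). Kcnn2 had 2.72 and 2.49 CPM in D7 and 1.44 and 1.40 CPM in D6 (log2 fold change 0.84, SE 0.18, adjusted p = 0.000893). Kcnn1 had 6.28 and 6.31 CPM in D7 and 4.57 and 3.92 CPM in D6 (log2 fold change 0.53, SE 0.13, adjusted p = 0.00249).

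Further risers came from other classes. The sodium channel pore Scn1a (Nav1.1, the gene of Dravet syndrome) had 2.45 and 2.27 CPM in D7 and 1.13 and 0.796 CPM in D6 (log2 fold change 1.26, SE 0.22, adjusted p = 0.000203). Kcnab2 had 5.63 and 6.28 CPM in D7 and 3.54 and 3.09 CPM in D6 (log2 fold change 0.81, SE 0.15, adjusted p = 0.000305). The genes that fell did so by less than 2-fold. Kcng1 had 14.3 and 13.5 CPM in D7 and 21.1 and 20.03 CPM in D6 (log2 fold change -0.60, SE 0.10, adjusted p = 8.67e-05). Kcna2 had 2.24 and 2.06 CPM in D7 and 2.98 and 3.57 CPM in D6 (log2 fold change -0.64, SE 0.18, adjusted p = 0.00768), a call lost without D6 replicate 2 (adjusted p = 0.0784). Scn4b had 14.4 and 14.3 CPM in D7 and 17.8 and 17.7 CPM in D6 (log2 fold change -0.34, SE 0.09, adjusted p = 0.00544). None of the 5 leak channels was called by edgeR or DESeq2, and 0 were under 0.05 in edgeR's test before adjustment. Kcnk5 had 26.7 and 27.7 CPM in D7 and 24.7 and 26.0 CPM in D6, and Kcnk1 had 13.8 and 13.3 CPM in D7 and 13.7 and 15.4 CPM in D6. Of 10 neuronal markers 7 were higher, with summed levels of 132 to 136 CPM in D7 against 84.7 to 88.9 CPM in D6. Neural progenitor markers were higher in 8 of 10 cases, at 756 to 761 CPM in D7 against 540 to 590 CPM in D6, and fibroblast markers in 6 of 9 tested, at 431 to 454 CPM in D7 against 294 to 297 CPM in D6. The part of any of these cells in the channel rise was not tested.

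D7G against D7 compares day 7 cells with and without the 24 h of Gdf11. Channel genes were higher more often than lower: 22 of 73 were called higher and 8 lower, where 22.5% of all genes were higher and 18.2% lower, and by at least 2-fold 9 were higher and 2 lower, against 4.25% and 0.957%. Kcnmb2, kept through its D7G level alone, is counted among the 22 and the 9. So is Kcnh6, which rests on 11 counts in D7G and 1 in D7 and was not called in the second deposited count table. Of the 15908 tested genes that passed the same level limit, 25.3% were called higher and 21.1% lower. The median log2 fold change was 0.20 for channel genes and 0.02 for all genes. The count of higher genes was 14 without D7G replicate 2 and with DESeq2, and that of lower genes was 5 without D7 replicate 2.

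**Figure D3:**
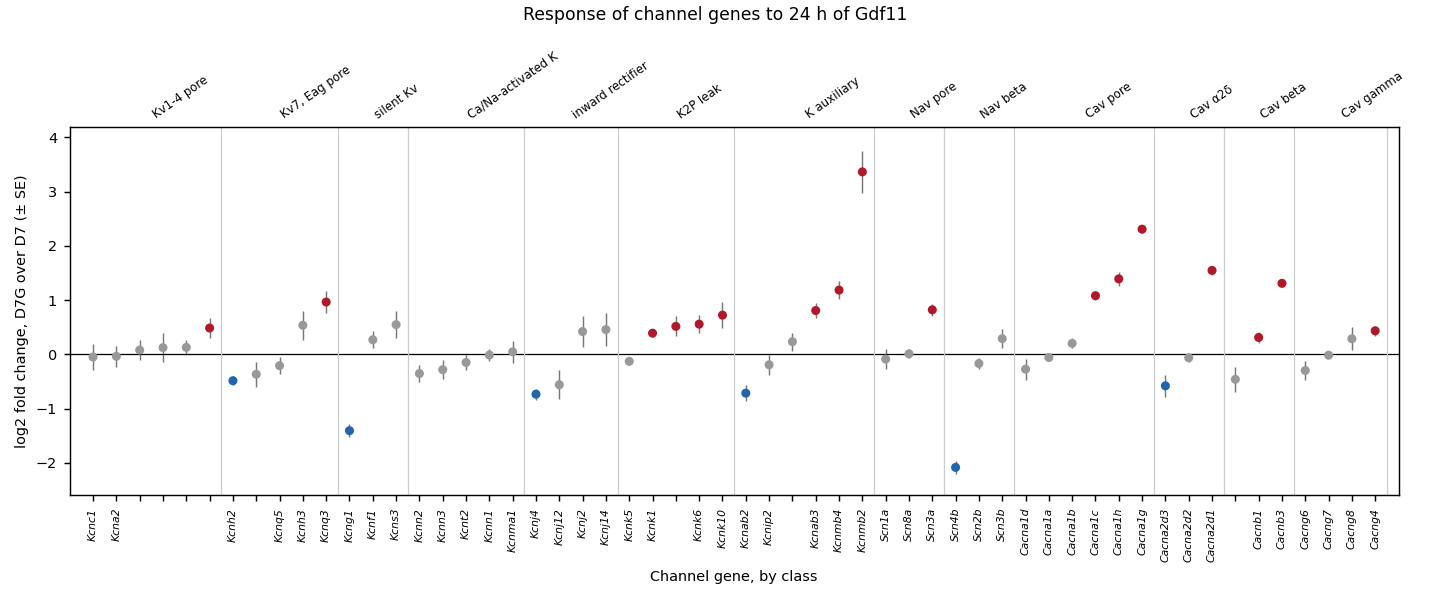
Log2 fold change of D7G over D7, with its standard error, for 56 channel genes with a group mean of at least 1 CPM in D7G or D7, by class and in rising order within a class, with the genes described in the text labelled; red points are called higher, blue points called lower and grey points not called. Cacna1g stands at 2.31 and Kcnmb2 at 3.36 above 0, and Scn4b at -2.09 and Kcng1 at -1.41 below. Kcnmb2 was kept in the set through its D7G libraries alone.

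Every calcium channel class but the gamma subunits held genes that rose at least 2-fold, among them 3 of the 7 pores. Cacna1g, the T-type pore, had 90.9 and 105 CPM in D7G and 19.4 and 20.2 CPM in D7, and the D7G libraries lay above every other library of the series (log2 fold change 2.31, SE 0.07, adjusted p = 3.47e-15). The other T-type pore among the 7, Cacna1h (chromosome 17, 25374285 to 25433783), had 8.17 and 10.2 CPM in D7G and 3.80 and 3.21 CPM in D7 (log2 fold change 1.39, SE 0.13, adjusted p = 6.33e-08). The L-type pore Cacna1c had 44.4 and 56.0 CPM in D7G and 24.2 and 23.2 CPM in D7 (log2 fold change 1.08, SE 0.09, adjusted p = 4.63e-09). The presynaptic pores Cacna1a and Cacna1b did not pass the test: Cacna1a had 17.5 and 18.3 CPM in D7G and 17.7 and 19.6 CPM in D7, and Cacna1b had 10.1 and 10.2 CPM in D7G and 8.02 and 9.61 CPM in D7. Per length the 7 pores together stood at 14.7 and 16.9 CPM per kb in D7G and 6.05 and 6.35 CPM per kb in D7, and Cacna1g made up 61.1% and 61.4% of this in D7G against 31.7% and 31.4% in D7.

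**Figure D4:**
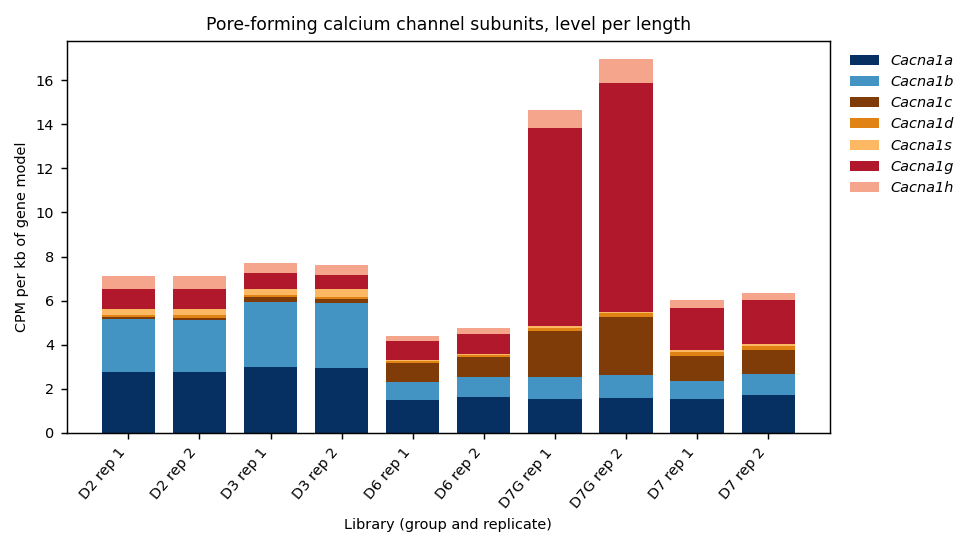
Level per length (CPM per kb of gene model) of the 7 pore-forming calcium channel genes, stacked by gene, in each of the 10 libraries. The D7G bars reach 14.7 and 16.9 CPM per kb, above all other libraries, and the red block of Cacna1g holds 61.1% and 61.4% of them, while Cacna1a and Cacna1b lead in D2 and D3.

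Among auxiliary calcium channel genes 1 of 3 alpha2delta genes rose and 1 fell, while 2 of 3 beta and 1 of 4 gamma genes rose. Cacna2d1 (chromosome 5, 15934691 to 16374511) had 50.1 and 60.8 CPM in D7G and 19.8 and 18.2 CPM in D7 (log2 fold change 1.55, SE 0.08, adjusted p = 7.99e-12), and its share among the alpha2delta genes per length was 70.7% and 74.1% in D7G against 46.8% and 44.0% in D7. Its relative Cacna2d2 had 12 and 12.5 CPM in D7G and 12.7 and 12.8 CPM in D7 and did not pass the test. Cacnb3 (chromosome 15, 98632220 to 98644530), which brings pores to the membrane, had 42.3 and 46.6 CPM in D7G and 17.3 and 18.5 CPM in D7 (log2 fold change 1.31, SE 0.06, adjusted p = 2.43e-12). Cacnb1, the beta subunit of skeletal muscle, had 7.51 and 8.97 CPM in D7G and 6.40 and 6.88 CPM in D7 (log2 fold change 0.31, SE 0.11, adjusted p = 0.0260). The call of Cacnb1 was lost without D7 replicate 1 (edgeR adjusted p = 0.17), D7 replicate 2 (0.0653) or D7G replicate 2 (0.365). Among gamma subunits Cacng4 had 14.3 and 13.1 CPM in D7G and 10.1 and 10.2 CPM in D7 (log2 fold change 0.43, SE 0.09, adjusted p = 0.00101), and Cacng7 did not pass the test, with 49.9 and 52.3 CPM in D7G and 49.6 and 53.8 CPM in D7.

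**Figure D5:**
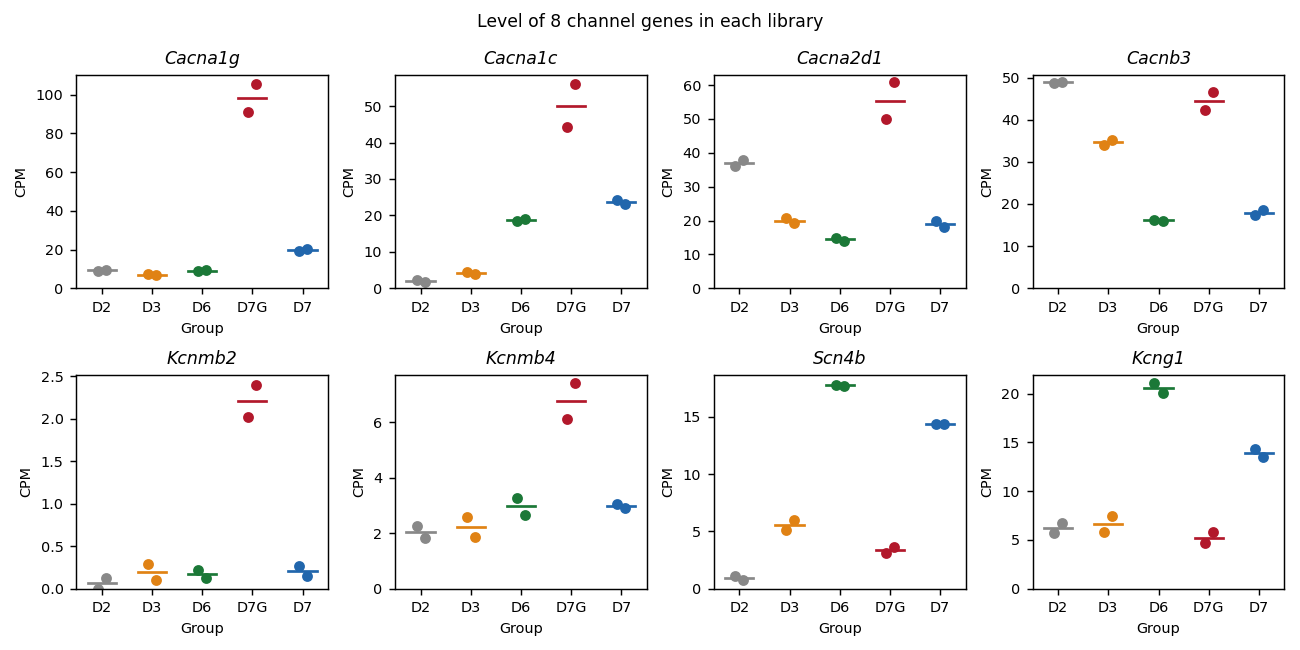
CPM of 8 channel genes (panels, each with its own linear axis from 0) in each library of the 5 groups, with a point per library and a bar at the group mean. Cacna1g, Cacna1c, Cacna2d1, Kcnmb2 and Kcnmb4 are highest in D7G, Cacnb3 in D7G (42.3 and 46.6 CPM) stands near its D2 level (48.6 and 49.1 CPM), and Scn4b and Kcng1 are lower in D7G than in D7 and D6.

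Auxiliary subunits of the large-conductance calcium-activated (BK) channel rose, while its pore did not pass the test. Kcnmb2 (chromosome 3, 31902507 to 32200180), the beta subunit that inactivates BK channels, had 2.02 and 2.40 CPM in D7G and 0.269 and 0.152 CPM in D7, and its highest level outside D7G was 0.285 CPM in D3 replicate 1 (log2 fold change 3.36, SE 0.38, adjusted p = 6.63e-07). Kcnmb2 passed the level rule through its D7G libraries alone. Its high level in D7G is thus built into the selection, and the test adds no support. Kcnmb4 (chromosome 10, 116417861 to 116473878), the beta subunit of neurons, had 6.12 and 7.44 CPM in D7G and 3.05 and 2.91 CPM in D7 (log2 fold change 1.18, SE 0.16, adjusted p = 5.52e-06). In the second deposited count table the log2 fold change of Kcnmb4 was 0.59 (SE 0.21, edgeR adjusted p = 0.0277). An antisense gene on the other strand, Kcnmb4os2, shares 20.8% of the length of Kcnmb4 and had 37 and 40 counts in D7G and 18 and 23 in D7, and since strand use in the counting is not given in the sources used here, reads of the shared part cannot be told apart. The BK pore Kcnma1 had 1.92 and 2.18 CPM in D7G and 1.77 and 2.21 CPM in D7. Of the 7 ion-activated channels none was called by edgeR or DESeq2 in either direction, with 1 lower at an unadjusted p under 0.05.

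Leak channels and voltage-gated pores held further calls. Of the leak channels 4 of 5 rose. Kcnk1 had 18.9 and 16.7 CPM in D7G and 13.8 and 13.3 CPM in D7 (log2 fold change 0.39, SE 0.08, adjusted p = 0.000337). Kcnk6 had 2.90 and 2.55 CPM in D7G and 1.95 and 1.76 CPM in D7 (log2 fold change 0.56, SE 0.16, adjusted p = 0.0104), and the mechanically gated Kcnk10 (TREK2) had 2.08 and 2.15 CPM in D7G and 1.5 and 1.06 CPM in D7 (log2 fold change 0.72, SE 0.23, adjusted p = 0.0180). These last calls rested on single libraries, as Kcnk6 lost its call without D7 replicate 2 (edgeR adjusted p = 0.0941) or D7G replicate 1 (0.105), and Kcnk10 without D7 replicate 2 (0.21), D7G replicate 1 (0.0523) or D7G replicate 2 (0.0719). Kcnk5 did not pass the test, at 25.1 and 24.5 CPM in D7G and 26.7 and 27.7 CPM in D7. The M-current gene Kcnq3 had 3.12 and 2.18 CPM in D7G and 1.53 and 1.18 CPM in D7 (log2 fold change 0.96, SE 0.21, adjusted p = 0.000842). Within the same class Kcnh2 fell, with 14.2 and 16.5 CPM of Kcnh2 in D7G against 20.2 and 22.8 CPM in D7 (log2 fold change -0.49, SE 0.09, adjusted p = 0.000128). The ERG relative Kcnh6 rested on 11 counts in D7G and 1 in D7, a ratio of 11.4 with an exact 95% interval of 1.66 to 493 that covers counting error only, and in the second deposited count table it was not called (log2 fold change 0.05, edgeR adjusted p = 0.944). The cytoplasmic beta subunits moved in opposite directions. Kcnab3 had 5.83 and 5.67 CPM in D7G and 3.08 and 3.49 CPM in D7 (log2 fold change 0.81, SE 0.13, adjusted p = 5.53e-05). Kcnab2 had 4.07 and 3.18 CPM in D7G and 5.63 and 6.28 CPM in D7 (log2 fold change -0.72, SE 0.15, adjusted p = 0.000612).

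The steepest falls were in a sodium channel beta subunit and a silent potassium channel subunit, and both genes had been higher in D6 than in D3. Scn4b had 3.09 and 3.67 CPM in D7G and 14.4 and 14.3 CPM in D7 (log2 fold change -2.09, SE 0.12, adjusted p = 1.72e-11), while its neighbour Scn2b had 6.40 and 6.85 CPM in D7G and 7.45 and 7.46 CPM in D7 and did not pass the test. Kcng1 had 4.67 and 5.79 CPM in D7G and 14.3 and 13.5 CPM in D7 (log2 fold change -1.41, SE 0.12, adjusted p = 1.23e-08). Kcnj4 had 5.77 and 5.45 CPM in D7G and 8.86 and 9.82 CPM in D7 (log2 fold change -0.73, SE 0.10, adjusted p = 8.85e-06). Cacna2d3 had 1.45 and 1.25 CPM in D7G and 1.86 and 2.18 CPM in D7 (log2 fold change -0.58, SE 0.21, adjusted p = 0.0306), a call lost without D7 replicate 2 (adjusted p = 0.164) or D7G replicate 2 (0.151). Sodium channel pores gave 1 call: Scn3a (Nav1.3, the pore of embryonic neurons) had 9.11 and 8.87 CPM in D7G and 5.30 and 4.88 CPM in D7 (log2 fold change 0.82, SE 0.11, adjusted p = 6.08e-06). Scn8a had 16.5 and 19.1 CPM in D7G and 16.2 and 19.1 CPM in D7, and these ranges overlapped.

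Promoter windows of 3 genes with large and opposite differences between D7G and D7 are shown, because Gdf11 acts through Smad factors one of whose short binding motifs is CAGAC, searched here on both strands. For Kcnmb2 the high D7G level is built into the selection, so its window cannot stand for a tested response. Cacna1g and Kcng1 had no window among those matched. Each window runs from 250 bases before to 50 after the annotated start (RefSeq, GRCm38.p6) and is written 5′ to 3′ on the strand of the gene, with the motif in capitals. The first is Cacna2d1 at chr5:15934441-15934740, the next Kcnmb2 at chr3:31902453-31902752 and the last Scn4b at chr9:45138374-45138673, all on the plus strand.
Cacna2d1: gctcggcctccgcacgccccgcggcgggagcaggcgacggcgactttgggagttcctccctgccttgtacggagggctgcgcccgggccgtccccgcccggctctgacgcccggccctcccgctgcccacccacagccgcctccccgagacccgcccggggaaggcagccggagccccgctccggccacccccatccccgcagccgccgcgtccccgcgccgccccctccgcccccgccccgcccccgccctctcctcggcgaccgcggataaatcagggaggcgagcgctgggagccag
Kcnmb2: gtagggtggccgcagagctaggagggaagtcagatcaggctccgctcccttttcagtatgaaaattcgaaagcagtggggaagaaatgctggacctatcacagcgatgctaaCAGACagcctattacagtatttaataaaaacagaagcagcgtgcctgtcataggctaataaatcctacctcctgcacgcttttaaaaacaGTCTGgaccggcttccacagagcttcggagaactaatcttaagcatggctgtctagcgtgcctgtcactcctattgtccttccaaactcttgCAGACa
Scn4b: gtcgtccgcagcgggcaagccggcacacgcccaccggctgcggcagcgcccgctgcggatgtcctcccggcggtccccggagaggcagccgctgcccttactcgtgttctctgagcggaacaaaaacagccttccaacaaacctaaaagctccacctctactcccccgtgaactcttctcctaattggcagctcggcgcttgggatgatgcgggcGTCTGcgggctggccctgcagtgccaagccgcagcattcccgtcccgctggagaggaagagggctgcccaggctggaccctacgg
The motif occurred 3 times in the window of Kcnmb2, 1 time in that of Scn4b and not in that of Cacna2d1, where no match says only that these letters are not in this window. It stood in 49.6% of all 32851 windows of the table and in 38 of the 70 windows of the 51 channel genes that could be matched (54.3%). The windows also differed in CpG content, with 42 CpG pairs and 80% G and C in Cacna2d1, 26 and 66.3% in Scn4b, and 9 and 47.7% in Kcnmb2. The Tcf and Lef motif CTTTGAT, searched on both strands, was in none of the 3 windows and in 1 of the 70, against 3.73% of all windows.

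Markers of several cell types also stood higher in D7G. Of the fibroblast markers 7 of 9 tested were higher, with summed levels of 1122 to 1252 CPM in D7G against 431 to 454 CPM in D7. Of the cardiac and smooth muscle markers 6 of 9 were higher, at 245 to 246 CPM in D7G against 85.7 to 96.6 CPM in D7; Tagln had 123 and 122 CPM in D7G and 41.1 and 47.5 CPM in D7, whereas the cardiac Myh6 had 0.252 and 0.343 CPM in D7G and 0.180 and 0.243 CPM in D7. Neuronal markers were higher in 5 of 10 cases, at 229 to 239 CPM in D7G against 132 to 136 CPM in D7, and neural crest markers in 6 of 10, at 165 to 167 CPM in D7G against 71.7 to 72.2 CPM in D7. Pluripotency and epiblast markers were higher in 9 of 10 cases, at 503 to 573 CPM in D7G against 415 to 416 CPM in D7. Of 10 neural progenitor markers 6 were lower and 3 higher. The part of any of these cells in the calcium channel rise was not tested.

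Genes that work with these channels were examined beside them, as 70 partner genes of which 61 were tested. In D3 against D2, 15 were higher and 26 lower, where 29.6% and 28.9% of all genes were, with a median log2 fold change of -0.22. In D6 against D3, 18 were higher and 27 lower (median -0.21), where 32.4% and 33.3% of all genes were. In D7 against D6, 17 were higher and 6 lower (median 0.16), where 20.5% and 15.6% of all genes were. In D7G against D7, 18 were higher and 8 lower (median 0.14), where 22.5% and 18.2% of all genes were. Of 8 genes for hyperpolarization-activated and sodium leak channels, 6 were called lower in D6 against D3. Unc80, a subunit of the sodium leak complex, had 0.470 and 0.446 CPM in D6 and 3.87 and 3.06 CPM in D3 (log2 fold change -2.83, SE 0.25, adjusted p = 5.64e-09). Of 11 sodium channel partners and axon initial segment genes, 8 were higher in D7 against D6, and the adhesion protein Nfasc had 12.5 and 11.9 CPM in D7 and 5.89 and 6.49 CPM in D6 (log2 fold change 0.94, SE 0.10, adjusted p = 5.17e-07). With Gdf11, Lrrc55, an auxiliary gamma subunit of BK channels, had 72 counts over both D7G libraries and 2 over both D7 libraries, a ratio of 37.5 with an exact 95% interval of 10.0 to 315. In the second deposited count table its log2 fold change was 3.79 (edgeR adjusted p = 4.73e-06). The sulfonylurea receptor Abcc8, which pairs with inward rectifiers, had 2.30 and 3.64 CPM in D7G and 0.748 and 0.970 CPM in D7 (log2 fold change 1.79, SE 0.24, adjusted p = 5.27e-06). The calcium release channel Ryr3 had 0.978 and 1.37 CPM in D7G and 3.32 and 3.18 CPM in D7 (log2 fold change -1.47, SE 0.19, adjusted p = 4.52e-06). The lysosomal cation channel Tpcn1 had 86.4 and 89.96 CPM in D7G and 51.1 and 49.8 CPM in D7 (log2 fold change 0.80, SE 0.05, adjusted p = 7.66e-11).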

How the data were processed

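Raw counts per gene symbol were deposited by the authors for 10 libraries of total RNA, 2 in each of 5 groups. The genome build was mm10, and the tools listed, per the submitters' processing notes, are limma, featureCounts (1.6.3), HISAT2 (2.1.0) and STAR. The role of each, the gene model and the use of strand are not given in the sources used here. A second deposited count table, per Ensembl gene, served as an alternative. The authors' own table of fold changes was not used.

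Samples were grouped by their titles. Genes entered the test after edgeR's filter on low counts (18818 genes), TMM factors (0.974 to 1.035) were computed, and 1 quasi-likelihood model with 5 group means was fitted to the 10 libraries (edgeR 4.0.16, R 4.3.3, 5 residual degrees of freedom, biological coefficient of variation 3.34%). P-values were adjusted by Benjamini-Hochberg over all genes tested, with a threshold of 0.05, and the fitting code was tested on simulated data. The standard error (SE) of an edgeR log2 fold change is its absolute value over the square root of the quasi-likelihood F statistic. It is therefore approximate, and least reliable for changes near 0. CPM values are counts scaled to the total of the library in genes. Totals of 31078950 to 33418015 counts mean that 1 CPM stands for at least 31 counts. Levels per length divide CPM by the length given in the file.

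Channel genes were chosen by name and level as described in the report, in 13 classes. Named per comparison were up to 12 called genes per direction with the largest change, no overlap between groups and at least 2 CPM in a group, the 2 genes of highest level per class, and up to 6 called partner genes. Other genes named for their values were chosen after these were seen. Some genes that the rule would name are not reported here. The members, classes and gene lists were chosen with earlier results of these data known, so their counts are descriptions. Intervals on low counts are exact and cover counting error only. Promoter windows came from RefSeq (GRCm38.p6), which gave a window for 51 of the 73 genes, and figures were drawn with matplotlib 3.10.9. Alternatives were DESeq2 1.42.0, limma-voom 3.58.1, other scaling factors, filters and count table, only the groups compared, a replicate block, other membership limits and leaving out each library.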

Additional observations from a re-analysis of the deposited data

How the results depend on the processing

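No named channel gene reversed its direction where the main fit or the alternative called it. Genes called in neither could change sign. Scn2b in D3 against D2, for example, had the other sign in 13 of 20 alternatives, with log2 fold changes from -0.10 to 0.11. Over 154 gene comparisons and 10 alternatives each that kept all libraries, 1495 of 1540 values kept their side of the threshold, 38 lost their call and 7 gained one, and with 1 library left out the numbers were 1464 kept, 69 lost and 7 gained of 1540. Called in every alternative were 34 of 48 called genes in D3 against D2, 51 of 60 in D6 against D3, 18 of 32 in D7 against D6 and 17 of 30 in D7G against D7.

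With a 2-fold limit added, the calls numbered 23 (16 higher, 7 lower) in D3 against D2, 39 (7 higher, 32 lower) in D6 against D3, 7 (7 higher, 0 lower) in D7 against D6 and 11 (9 higher, 2 lower) in D7G against D7. DESeq2 called 4 genes lower in D7 against D6 (main count 7) and 14 higher in D7G against D7 (main count 22). Leaving out 1 library at a time gave 38 to 49 calls in D3 against D2 (19 to 26 higher, 19 to 23 lower), 54 to 60 in D6 against D3 (10 to 15 higher, 43 to 45 lower), 22 to 32 in D7 against D6 (18 to 25 higher, 3 to 7 lower) and 20 to 30 in D7G against D7 (14 to 22 higher, 5 to 11 lower). The lowest counts that moved by over 1.5 times were 3 lower without D6 replicate 1, 14 higher without D7G replicate 2 and 5 lower without D7 replicate 2. In D7G against D7, the calls of Cacnb1 and Cacna2d3 were lost in several of these fits, and the cause was not tested.

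Deviations of same-numbered libraries correlated between -0.0418 and 0.0487 across genes, so no strong pairing by replicate number was seen. With 1 replicate difference per group this cannot exclude a shared culture, and the labels do not say. With a replicate block 47, 60, 32 and 29 channel genes were called in the 4 comparisons (main 48, 60, 32 and 30). Membership at 0.5 CPM gave 56, 70, 34 and 34 calls, and at 2 CPM 44, 52, 30 and 27. With library totals in place of TMM the median of all genes shifted by at most 0.08 on the log2 scale. Depth limits the genes near 1 CPM, and with 2 libraries a group the smallest differences cannot be separated from the spread.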

Other observations

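Rest, the repressor known for silencing neuronal channel genes outside neurons, was expressed throughout. It had 167 and 163 CPM in D3 and 212 and 203 CPM in D2 (log2 fold change -0.41, SE 0.07, adjusted p = 6.52e-05), and 140 and 122 CPM in D6 against the D3 values (log2 fold change -0.26, SE 0.07, adjusted p = 0.00484). It did not pass edgeR's test in D7 against D6 (128 and 107 CPM in D7, adjusted p = 0.0528), and had 166 and 142 CPM in D7G against the D7 values (log2 fold change 0.39, SE 0.07, adjusted p = 0.000296). No relation of Rest to the channel genes was tested. In the promoter windows, the RE1 motif parts CAGCACC and GGACAGC, searched on both strands, occurred in 8.57% and 11.4% of the 70 channel windows and in 7.14% and 6.56% of all windows, which is a description with no test.

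The pacemaker channel genes, outside the symbol rule, had their own course. Hcn2 had 2.07 and 2.23 CPM in D6 and 6.85 and 6.15 CPM in D3 (log2 fold change -1.52, SE 0.15, adjusted p = 1.46e-08), and Hcn4, the pacemaker channel of the heart, had 1.6 and 1.75 CPM in D6 and 3.17 and 3.54 CPM in D3 (log2 fold change -0.92, SE 0.17, adjusted p = 7.89e-05). Hcn4 rose in D7 to 2.75 and 2.55 CPM, against the D6 values (log2 fold change 0.63, SE 0.18, adjusted p = 0.00833). The 4 Hcn genes did not pass edgeR's test in D7G against D7, while the sodium leak pore Nalcn had 3.85 and 3.43 CPM in D7G and 2.48 and 2.21 CPM in D7 (log2 fold change 0.63, SE 0.18, adjusted p = 0.00838). These genes were named after their values were seen.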
